A study of Brassica napus with 12 samples.

Results

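The average effect of growth at 29 °C on root tip transcripts was estimated for spring oilseed rape (Brassica napus) by setting all 6 libraries grown at 29 °C against all 6 grown at 21 °C, with the variety, Drakkar or Duplo, held as a block. The comparison used 12 of the 12 libraries of the series and every gene that passed a filter on low counts, 55227 of the 101038 genes in the count tables. The 4 groups were Drakkar at 21 °C, Drakkar at 29 °C, Duplo at 21 °C and Duplo at 29 °C, with 3 biological replicates each. Seedlings of both varieties were germinated and then kept for 7 days at either temperature on pouches with a paper wick, and the only treatment that differed was the temperature. Each replicate pooled root tips of many seedlings, so the spread between libraries is a spread between pools, and the tips hold meristem, root cap and young elongating tissue together. In such pools, fewer cells of a type and less RNA per cell cannot be told apart.

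Warmth above the optimum but below the level that damages proteins is known to change plant growth through transcription factors, hormones and carbon use, whereas stronger heat calls up the heat-shock response. That response rests on heat-shock factors, which bind promoters of chaperone genes, and on the chaperones themselves, which hold or refold unfolded proteins. Root tips depend on sucrose that arrives through the phloem, respire quickly, and can be short of oxygen at their centre. B. napus is an allotetraploid that carries an A subgenome from B. rapa and a C subgenome from B. oleracea. Most genes therefore have near-identical copies on both, and the division of reads between copies is uncertain for each gene named here.

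Reads assigned to genes numbered between 29950049 and 39934384 at 21 °C, with a median of 33646543, and between 26554987 and 31701607 at 29 °C, with a median of 28441049. Replicates of 1 group differed by more than sampling noise in each pair. After the mean of each variety was removed, the first principal component held 36.7% of the variance. The Drakkar libraries at 29 °C had scores of 50.8, 37.5 and 96.5 on it, whereas those of Duplo had scores of -35.4, -16.2 and 151, and all libraries at 21 °C lay between -90.3 and -15.1. Replicate 3 of Duplo at 29 °C thus stood apart from its group on this axis. A second library, replicate 2 of Duplo at 21 °C, carried high levels of chaperone transcripts. The summed level of 30 genes of the small heat-shock protein list was 865 CPM in it (CPM are counts scaled to the size of the library), but 66.5 and 66.1 CPM in the other replicates of its group. Because many list members lay close to the thresholds, counts without single libraries are given beside each list whose count moved by over 1.5 times.

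**Figure D1:**
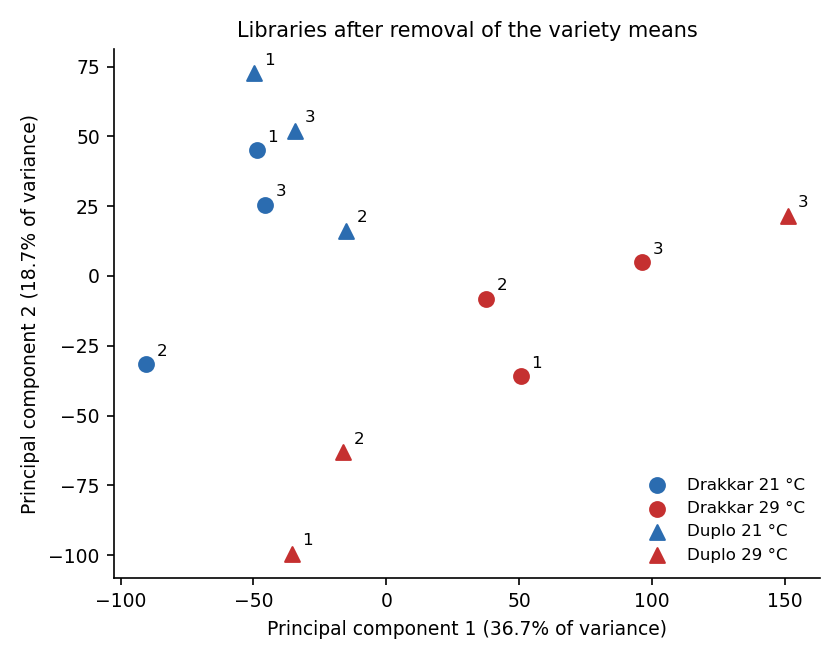
Principal component scores of the 12 libraries after removal of the variety means, with component 1 (36.7% of the variance) on the horizontal axis and component 2 (18.7%) on the vertical axis. Circles are Drakkar, triangles Duplo, blue 21 °C and red 29 °C, and the numbers are replicates. Replicate 3 of Duplo at 29 °C lies at 151 on component 1, while replicates 1 and 2 of the same group lie at -35.4 and -16.2.

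At 29 °C, 1945 genes were called as differentially expressed genes (DEGs), which was 3.52% of the genes tested. A DEG had an adjusted p below 0.05 and a log2 fold change of more than 1 in size. Of these, 1490 were upregulated (2.7% of genes tested) and 455 downregulated (0.824%), so 76.6% of DEGs rose. The median log2 fold change was 1.44 among upregulated and -1.36 among downregulated DEGs, beside 0.03 over all genes. Larger changes were fewer, since 324 upregulated and 86 downregulated DEGs exceeded a log2 fold change of 2 in size. Without replicate 3 of Duplo at 29 °C, 1415 DEGs were called, 1017 higher and 398 lower. Leaving out both Duplo libraries named above gave 1620 DEGs, 1185 higher and 435 lower.

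The surplus of upregulated genes came with the fold change threshold. Among the 10894 genes with an adjusted p under 0.05 at any size of change, 5316 were higher and 5578 lower at 29 °C, a share of 48.8% higher. With a minimum absolute log2 fold change of 0.5 the share was 61.1%, and above 2 it was 79%. This split depended on the scaling, as library totals alone, in place of TMM factors, gave 69.5% higher at any size and 84.3% among DEGs. DEGs of both directions were also low in abundance. The median level of upregulated DEGs was 0.605 CPM at 21 °C against 1.71 CPM at 29 °C. That of downregulated DEGs was 2.01 CPM at 21 °C against 0.737 CPM at 29 °C. Medians over all genes tested were 5.17 and 5.48 CPM. Together the upregulated DEGs took between 0.347% and 0.473% of the reads at 21 °C and between 0.753% and 2.06% at 29 °C, where the highest share was that of Duplo replicate 3 and the next was 1.46%.

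**Figure D2:**
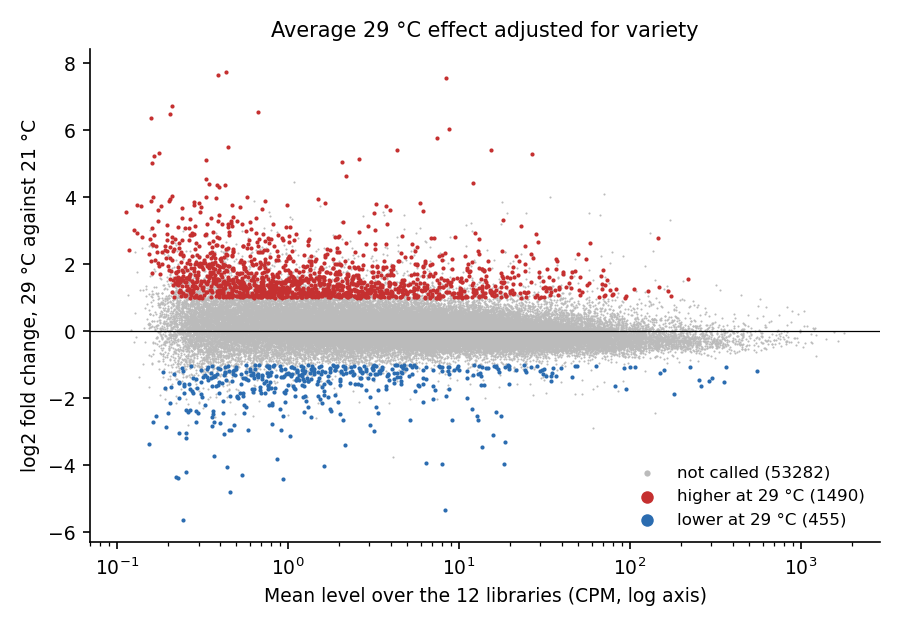
Log2 fold change of the average 29 °C effect adjusted for variety (vertical axis) against the mean level over the 12 libraries in CPM (horizontal log axis), 1 point per gene. Red points are the 1490 upregulated DEGs, blue points the 455 downregulated DEGs and grey points genes not called. Upregulated DEGs lie mostly at low levels, with a median of 0.605 CPM at 21 °C.

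The average was made of a Drakkar and a Duplo effect, which were also estimated side by side in a fit of the 4 group means. There, 1122 genes (2.03%) were DEGs in Drakkar and 684 (1.24%) in Duplo, and 0 genes differed in their response between the varieties at an adjusted p under 0.05. The lowest adjusted p of that difference was 0.0926, and 3891 genes had an unadjusted p under 0.05. DESeq2 was not run on this difference. Of the 1945 DEGs of the average, 1236 exceeded a log2 fold change of 1 in size in both varieties with the same sign. A further 445 exceeded it in Drakkar alone and 259 in Duplo alone. Over all DEGs, 46 had opposite signs in the varieties. These counts describe how the average arose and are no independent evidence of a shared direction, because the average itself fixes it. In 1038 DEGs, the 3 libraries at 29 °C did not overlap the 3 at 21 °C in either variety, in the same direction, as was so for 12.4% of all genes tested. Over the varieties together, all 6 libraries at 29 °C lay above all 6 at 21 °C in 433 upregulated DEGs, beside 2.91% of all genes tested, and below them in 198 downregulated DEGs, beside 3.62%.

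Names for the genes came from supplementary tables of the study, which list genes that the study selected as responsive in these same libraries. A name was thus available for 1039 DEGs, 998 upregulated and only 41 downregulated, and counts over named genes are not independent evidence of a direction. Of the 2296 tested genes with an entry in these tables, 43.5% were called higher and 1.79% lower. Every list below takes its members from these entries, so its counts are to be read beside those shares. The share called higher was under 43.5% in the trehalose, low sugar supply, chaperone, heat-shock, peroxide, cell wall, nitrate, phloem, green tissue and endodermis lists. It was close to 43.5% in the sugar transport, hormone, cell cycle and cytoskeleton lists. Primer pairs for quantitative PCR are shown for 4 of the DEGs described below, since they mark the transcripts on which the ethylene, sugar, cytokinin and homeobox results turn. They are written 5′ to 3′ in lower case, forward and then reverse.
ACO1, BnaCnng33000D, C subgenome without a chromosome, forward: acaccgtgtgatgacgatga
ACO1, BnaCnng33000D, reverse: gcatccccagctggattgta
SUC7, BnaC06g32880D, chromosome C06, forward: taaccccggtgaggagaaca
SUC7, BnaC06g32880D, reverse: gagccgtgacgatcaaaagc
CKX1, BnaC04g01930D, chromosome C04, forward: gcgtccaaggactttggcaac
CKX1, BnaC04g01930D, reverse: cctctggctgctactgtaag
HB3, BnaC03g18850D, chromosome C03, forward: ctgatgaatatggcgtcgcac
HB3, BnaC03g18850D, reverse: ggtgcaggaaagagccagata

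The lowest p of all genes belonged to PAB4 (BnaA09g42030D), whose product binds poly(A) and coats the tails of messenger RNAs. In Drakkar its level was 11, 12.7 and 13.4 CPM at 21 °C against 54.8, 46.4 and 49.1 CPM at 29 °C. In Duplo its level was 4.44, 5.05 and 5.13 CPM at 21 °C against 21.4, 22.6 and 22.3 CPM at 29 °C. All 6 warm libraries lay above all 6 libraries at 21 °C, although Duplo was lower than Drakkar at either temperature. The average log2 fold change was 2.1 ± 0.08 (SE, n = 6 against 6, adjusted p = 3.07e-07), and the call held in each of the 12 fits that left out 1 library. The RNA-binding group was otherwise mixed. Of 18 tested genes of the splicing and RNA binding list, 10 were upregulated and 0 downregulated (median log2 fold change 1.48), among them the splicing regulator SR30 (BnaA06g37780D, 1.47 ± 0.35, adjusted p = 0.0144) and SCL33 (BnaC06g10860D, 1.01 ± 0.16, adjusted p = 0.00298). The latter call was lost in 5 of the 12 fits that left out 1 library, those without replicate 1 or 3 of Drakkar at 29 °C, replicate 1 of either variety at 21 °C, or replicate 3 of Duplo at 29 °C. A further SCL33 copy, BnaA06g00410D, had a log2 fold change of 0.93 ± 0.11 (adjusted p = 0.000904) and stayed under the fold threshold. The splicing factor gene RDM16 (BnaA08g18640D) held at most 3 counts per library at 21 °C and was at least 4.97-fold higher at 29 °C, when the floor of 3 counts per library stands for its level at 21 °C. The list held 7 upregulated genes without replicate 3 of Duplo at 29 °C and 13 without replicate 2 of Duplo at 21 °C. It held 5 without replicate 1 of Drakkar at either temperature or of Duplo at 21 °C, and 6 without replicate 2 of Drakkar at 21 °C.

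Both copies of DRG1 with an entry in the study's tables showed large changes. DRG1 is a GTP-binding protein of the developmentally regulated G-protein family. The A-subgenome copy BnaA07g30360D had 0.297, 0.303 and 0.274 CPM in Drakkar at 21 °C against 24.6, 10.9 and 22.8 CPM at 29 °C. In Duplo, the same copy had 0.155, 0.481 and 0.034 CPM at 21 °C against 7.67, 8.45 and 13 CPM at 29 °C. Its log2 fold change was 5.78 ± 0.38 (SE, adjusted p = 5.95e-05). The C-subgenome copy BnaC06g33810D went from between 0.031 and 0.515 CPM over the 6 libraries at 21 °C to between 8.85 and 28.3 CPM at 29 °C. Its log2 fold change of 6.04 ± 0.43 (adjusted p = 8.97e-05) differed from that of the A copy by less than either SE. Groups did not overlap in either copy.

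Other genes with low error and no overlap between temperatures were of diverse function. FMO GS-OX2 (BnaC09g13360D), a flavin monooxygenase that oxidises glucosinolates, went from 2.88 to 4.19 CPM at 21 °C to 9.58 to 13.1 CPM at 29 °C (log2 fold change 1.74 ± 0.11, adjusted p = 5.41e-05). ASY1 (BnaC06g28450D), known for its role on meiotic chromosomes, rose by 2.28 ± 0.17 on the log2 scale (adjusted p = 8.97e-05) and yet stayed at or under 3.40 CPM. The bZIP transcription factor gene BZIP69 (BnaC08g01660D) rose by 2.83 ± 0.21 (adjusted p = 0.000103). FTSHI1 (BnaC03g46120D), which encodes a chloroplast envelope protein, rose by 2.65 ± 0.20 (adjusted p = 0.000103). BIA (BnaCnng69590D), a small secreted peptide gene, was the most abundant of this set, with 50.3 to 67.5 CPM at 21 °C against 114 to 141 CPM at 29 °C. Its log2 fold change was 1.06 ± 0.09 (adjusted p = 0.000267), and the call was lost without replicate 2 of Drakkar at 21 °C. Of genes near 0 at 21 °C, FBA6 (BnaAnng31970D), an aldolase of glycolysis, had 0.118 ± 0.078 CPM (SD, n = 6) at 21 °C against 4.04 ± 2.98 CPM at 29 °C. The pectin lyase-like gene BnaC03g22600D held at most 1 count per library at 21 °C and 0.802 to 1.73 CPM at 29 °C, which was at least 14.4-fold higher than the floor of 3 counts per library.

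**Figure D3:**
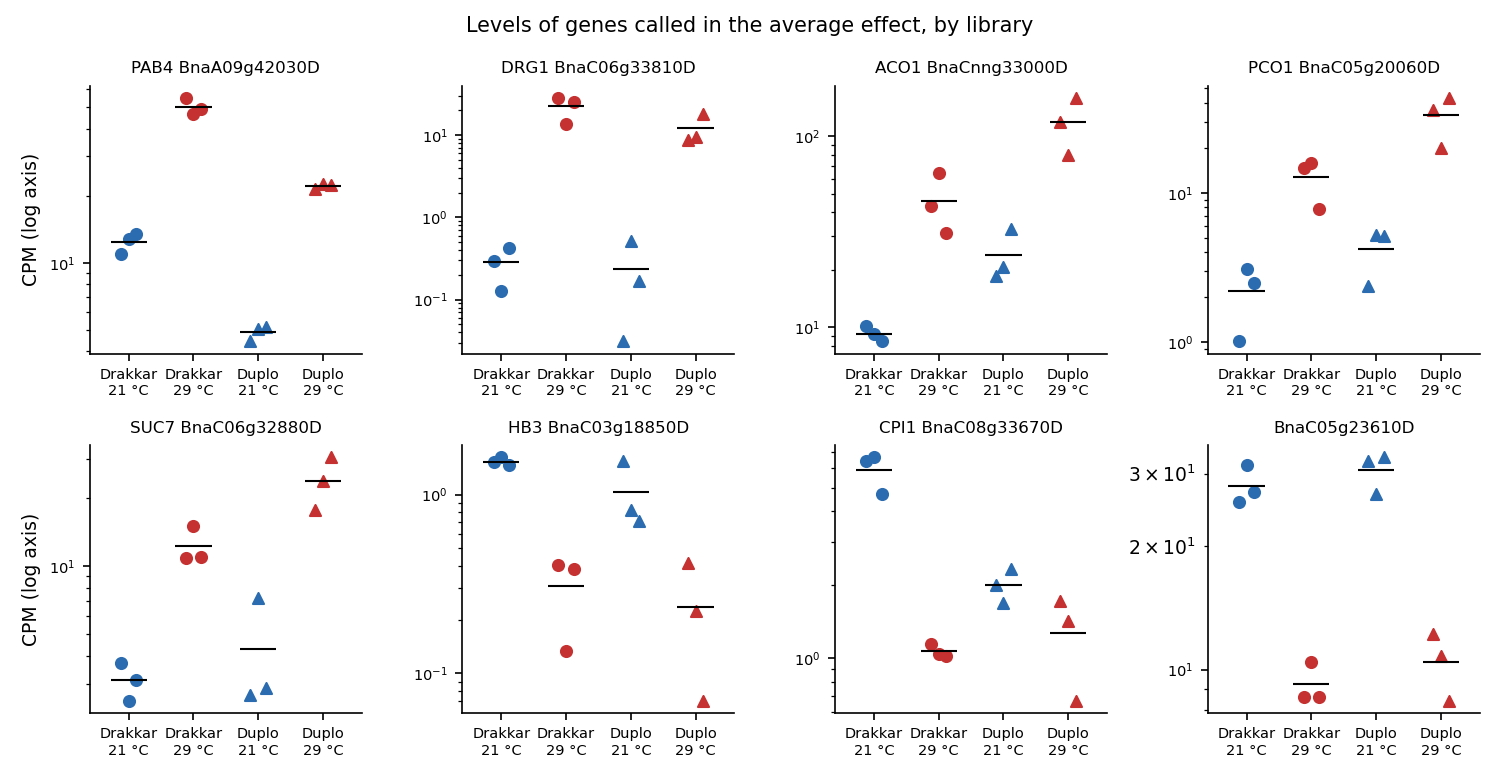
Levels of 8 genes in the 12 libraries (CPM, log axis, with its own range in each panel), grouped by variety and temperature. Circles are Drakkar, triangles Duplo, blue 21 °C, red 29 °C, and black bars are group means of 3 libraries. PAB4, DRG1, ACO1, PCO1 and SUC7 lie higher at 29 °C in both varieties, HB3 and BnaC05g23610D lie lower in both, and CPI1 overlaps between temperatures in Duplo.

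Ethylene is made from S-adenosylmethionine by ACC synthase and then ACC oxidase, is sensed by receptors such as ERS2, and acts through transcription factors of the ERF family. Of 18 tested members, 16 were upregulated and 0 downregulated (median log2 fold change 1.69), and 11 remained in number without replicate 3 of Duplo at 29 °C. ACO1 (BnaCnng33000D), an ACC oxidase, had 10.1, 9.22 and 8.44 CPM in Drakkar at 21 °C against 43.1, 64.1 and 31.0 CPM at 29 °C. In Duplo it had 18.7, 20.7 and 32.5 CPM at 21 °C against 119, 79.3 and 158 CPM at 29 °C. The log2 fold change was 2.31 ± 0.22 (adjusted p = 0.000383), with 2.31 in each variety taken alone, and the libraries did not overlap within a variety. A second copy of ACO1, BnaC08g36640D, rose from 9.30 to 25.6 CPM at 21 °C to 29.5 to 61.5 CPM at 29 °C (1.77 ± 0.24, adjusted p = 0.0015). SAM1 (BnaC04g00410D), which makes S-adenosylmethionine, had a log2 fold change of 1.53 ± 0.71 and did not pass (adjusted p = 0.145). Its value was 0.50 without replicate 3 of Duplo at 29 °C. The other of the 2 tested SAM1 copies with an entry in the study's tables was an upregulated DEG.

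Low oxygen genes shared members with that group. In plants, cysteine oxidases such as PCO1 pass oxygen levels on to ERF factors, which turn on fermentation genes. PCO1 (BnaC05g20060D) had 1.01, 3.08 and 2.47 CPM in Drakkar and 2.36, 5.19 and 5.10 CPM in Duplo at 21 °C. At 29 °C it had 14.7, 15.8 and 7.79 CPM in Drakkar and 36.0, 20.1 and 43.0 CPM in Duplo. It rose by 2.76 ± 0.32 on the log2 scale (adjusted p = 0.000904), with no overlap over the 6 and 6 libraries. The ERF factor ERF73 rose in its C copy BnaC06g24360D (1.86 ± 0.19, adjusted p = 0.000442) and in its A copy BnaA07g23090D (2.1 ± 0.22, adjusted p = 0.000565). PDC2 (BnaA10g09270D), a pyruvate decarboxylase of ethanol fermentation, rose by 1.08 ± 0.21 (adjusted p = 0.00695) but lost its call without replicate 1 or 2 of Duplo at 21 °C and without replicate 1 of Duplo at 29 °C. Of 14 tested members, 8 were upregulated and 0 downregulated (median 1.47). The summed level of the list was 183 to 487 CPM at 21 °C against 395 to 1829 CPM at 29 °C, with the highest value in replicate 3 of Duplo at 29 °C. The highest value at 21 °C was in replicate 3 of Duplo too, so that the 2 temperatures overlapped in this sum. The number of DEGs was 7 without the former library.

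Sugar transporters and sucrose enzymes had DEGs in both directions. Of 32 tested genes, 15 were upregulated and 2 downregulated (median 1.28). The sucrose-proton symporter gene SUC7 (BnaC06g32880D) had 3.71, 2.53 and 3.11 CPM in Drakkar at 21 °C against 10.9, 15.2 and 10.9 CPM at 29 °C. In Duplo it had 2.67, 7.25 and 2.89 CPM at 21 °C against 17.8, 23.8 and 30.4 CPM at 29 °C. Its log2 fold change was 2.24 ± 0.26 (adjusted p = 0.000904) with no overlap, even though replicate 2 of Duplo was high for 21 °C. The copy on A07, BnaA07g29680D, rose by 1.62 ± 0.22 (adjusted p = 0.0016). SPS2F (BnaC07g29460D), a sucrose-phosphate synthase, rose by 1.87 ± 0.31 (adjusted p = 0.00359). SWEET11 (BnaA06g16330D), a sucrose exporter, rose by 2.1 ± 0.52 (adjusted p = 0.018), although its Drakkar libraries overlapped and the call was lost without replicate 1 of Drakkar at 29 °C. The 2 downregulated DEGs, BnaCnng70440D (-1.03 ± 0.14, adjusted p = 0.00172) and BnaC02g15720D (-1.05 ± 0.22, adjusted p = 0.00925), are copies of 1 Arabidopsis locus, and the second is named because it was the only other downregulated DEG of the list, after its values were seen. The hexose transporter gene VGT1 (BnaA03g28200D, -0.91 ± 0.15, adjusted p = 0.00346) and the vacuolar invertase gene BETAFRUCT4 (BnaA06g08310D, -0.70 ± 0.22, adjusted p = 0.0463), chosen likewise, were lower at 29 °C but stayed under the fold threshold. BnaCnng70440D was no DEG without replicate 3 of Duplo or replicate 1 or 3 of Drakkar at 29 °C. Its call was also lost without replicate 1 or 2 of Drakkar at 21 °C, and with library totals alone. In the list as a whole, 13 were upregulated and 0 downregulated without replicate 3 of Duplo at 29 °C.

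Trehalose and raffinose genes held large fold changes, and most of their calls depended on single libraries. Of 27 tested members, 10 were upregulated and 0 downregulated (median 1.57), with 5 without replicate 3 of Duplo at 29 °C and 13 without replicate 2 of Duplo at 21 °C. The count was 2, 2 and 4 without replicates 1, 2 and 3 of Drakkar at 21 °C, 5 without replicate 1 or 3 of Drakkar at 29 °C, and 4 and 5 without replicates 1 and 3 of Duplo at 21 °C. The trehalase gene TRE1 (BnaC03g56490D) had 0 counts in all 6 libraries at 21 °C and 0.421 ± 0.166 CPM (SD, n = 6) at 29 °C, at least 4.56-fold above the floor of 3 counts per library. GolS1 makes galactinol, the donor for raffinose sugars. Its copy BnaC04g51460D had 10, 0.701 and 19.1 CPM in Drakkar at 29 °C and 0.223, 0.449 and 0.422 CPM in Duplo, against at most 0.344 CPM at 21 °C. The highest values were those of Drakkar replicates 1 and 3, and the average log2 fold change was 5.15 ± 1.30 (adjusted p = 0.0192). The call was lost without any 1 of the 3 Drakkar libraries at 21 °C.

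Calls among genes that mark low sugar supply changed with single libraries. KMD proteins are F-box proteins that destabilise cytokinin response regulators, and they share this list with dormancy-associated genes and others raised when sugar runs short. Of 32 tested genes, 11 were upregulated and 0 downregulated (median 1.70), and 2 were without replicate 3 of Duplo at 29 °C. Conversely, 18 were upregulated without replicate 1 and 21 without replicate 2 of that group. The count was 4, 6 and 4 without replicates 1, 2 and 3 of Drakkar at 21 °C, 6 and 4 without replicates 1 and 3 of Drakkar at 29 °C, and 5 and 6 without replicates 1 and 3 of Duplo at 21 °C. The summed level was 98.7 to 265 CPM at 21 °C. At 29 °C it was 230, 289 and 646 CPM in Drakkar but 151, 102 and 1479 CPM in Duplo. KMD1 (BnaC06g40570D) had 40.4 CPM in that Duplo library and 1.05 and 0.711 CPM in the others of its group. Its log2 fold change of 3.58 ± 0.85 (adjusted p = 0.015) became 2.04 without it (adjusted p = 0.0666). SK4 (BnaA06g14260D), a SKP1-like ubiquitin ligase subunit placed on this list, had 13.3 CPM in that library and 10.1 and 10.8 CPM in the others of its group, and rose by 1.33 ± 0.15 (adjusted p = 0.000809) without overlap. DYL1 (BnaA09g27350D), a dormancy-associated gene, rose by 1.22 ± 0.28 (adjusted p = 0.014).

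**Figure D4:**
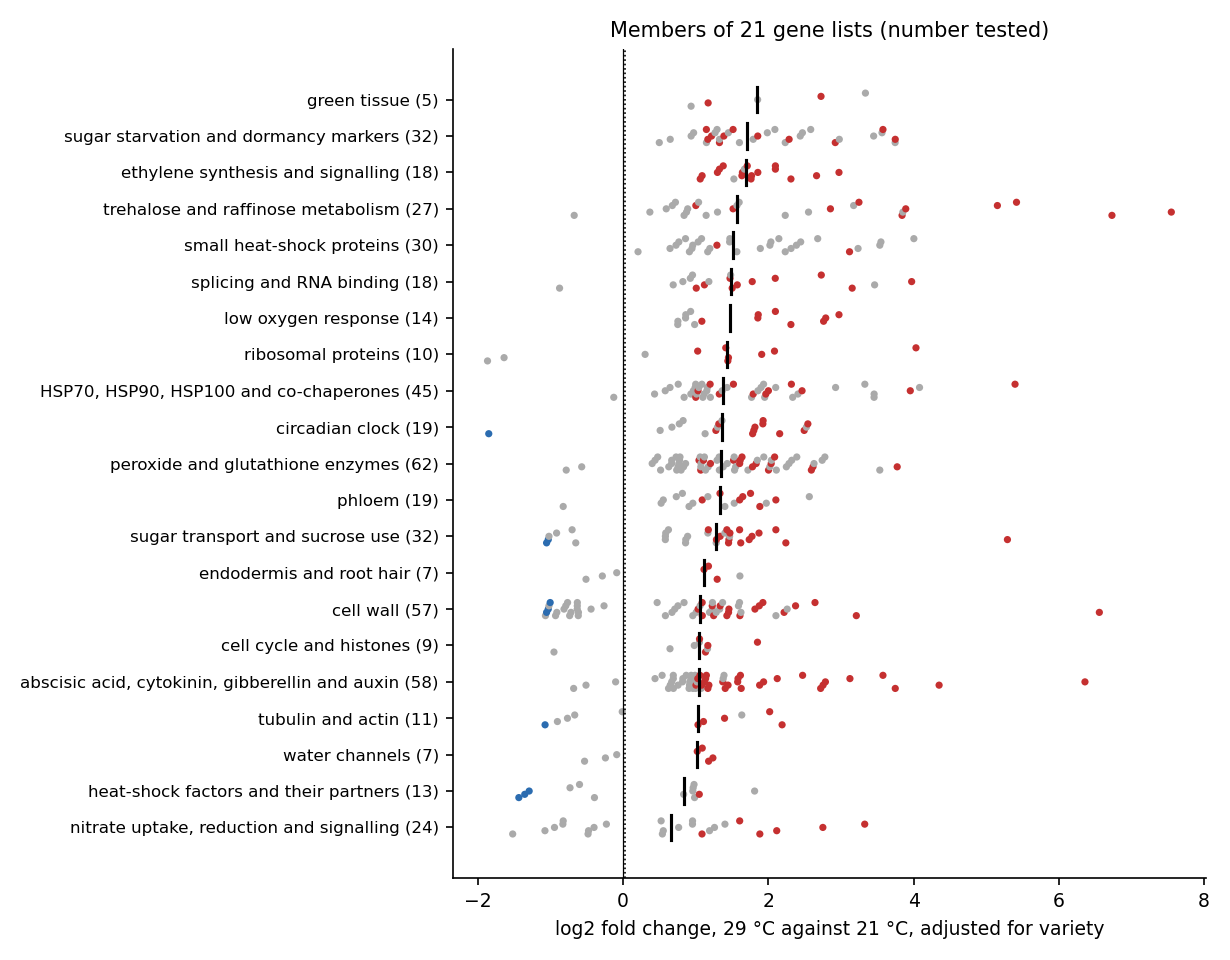
Log2 fold change of the average 29 °C effect (horizontal axis) for the tested members of each gene list, 1 point per gene, with the number tested in parentheses. Red points are upregulated DEGs, blue points downregulated DEGs, grey points genes not called, black bars list medians and the dotted line the median of all genes (0.03). Medians lie between 0.66 for the nitrate list and 1.85 for the green tissue list, in genes that the study chose on these libraries.

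Of 58 tested genes of abscisic acid, cytokinin, gibberellin and auxin, 28 were upregulated, 0 were downregulated and 30 were not called (median 1.04), and 20 were upregulated without replicate 3 of Duplo at 29 °C. PYL6 encodes an abscisic acid receptor, and its copy BnaA04g29300D went from 3.79 to 6.95 CPM at 21 °C to 10.1 to 22.3 CPM at 29 °C (1.88 ± 0.21, adjusted p = 0.000818). The copy BnaA03g19030D rose by 3.12 ± 0.39 (adjusted p = 0.00124). The receptor genes PYL5 (BnaA10g24990D, 0.76 ± 0.15, adjusted p = 0.00689) and PYL4 (BnaC03g21240D, 0.94 ± 0.20, adjusted p = 0.00909) stayed under the fold threshold. CKX1 (BnaC04g01930D), a cytokinin oxidase that degrades cytokinin, had between 0 and 4 counts per library at 21 °C. At 29 °C it reached 2.04, 0.668 and 0.737 CPM in Drakkar and 0.382, 0.337 and 0.211 CPM in Duplo (adjusted p = 0.00197). ABP1 (BnaA03g25890D), named for auxin binding, went from 9.58 to 16.8 CPM at 21 °C to 22.9 to 36.3 CPM at 29 °C (adjusted p = 0.00134). The gibberellin oxidase gene GA2ox2 (BnaA07g07480D) rose by 1.32 ± 0.35 (adjusted p = 0.0233), with 0.53 in Drakkar and 2.01 in Duplo, and the unadjusted p of that difference was 0.0277. Its call was lost without replicate 3 of Duplo at 29 °C and without any 1 of the 3 Duplo libraries at 21 °C.

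Clock genes included 10 upregulated and 1 downregulated gene of 19 tested (median 1.36), with 7 upregulated and 0 downregulated without replicate 1 of Drakkar at 21 °C or replicate 3 of Drakkar at 29 °C. ELF4-L1, a relative of the evening complex gene ELF4, rose in its C03 copy BnaC03g26210D (2.16 ± 0.29, adjusted p = 0.00147) and its A03 copy BnaA03g21910D (1.93 ± 0.31, adjusted p = 0.0033). The bZIP factor gene BZO2H3 (BnaA02g31000D) rose by 1.78 ± 0.36 (adjusted p = 0.00819), although its highest values, 32.9 and 40.8 CPM, were those of replicates 3 at 29 °C. The only downregulated DEG of the list, CDF1 (BnaAnng29770D, -1.85 ± 0.53, adjusted p = 0.0318), was at or under 0.531 CPM in each library. It is named because it was the single exception, after its values were seen, and its adjusted p was 0.0539 without replicate 2 of Duplo at 21 °C. 

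Heat-shock genes were mostly not called in the average. Of 30 tested genes of the small heat-shock protein list, 2 were upregulated and 0 downregulated, with a median log2 fold change of 1.52. Their median was 5.05 in Drakkar and -0.54 in Duplo. HSP17.6II (BnaC03g05240D), a cytosolic small heat-shock protein, had 48.8, 0.267 and 86.9 CPM in Drakkar at 29 °C, and 0.127, 0.337 and 0.458 CPM in Duplo. At 21 °C it had at most 0.0609 CPM in Drakkar and 0, 4.19 and 0 CPM in Duplo. The average was 3.24 ± 2.63 (adjusted p = 0.397). Drakkar replicate 2 was low for 29 °C and Duplo replicate 2 was high for 21 °C. Without the latter library, 23 of the 30 genes were upregulated (median 3.61). The other small heat-shock genes with a primer pair were HSP23.6-MITO (BnaA01g14560D, 3.54 ± 1.65, adjusted p = 0.144) and HSP15.7 (BnaAnng17140D, 2.39 ± 1.69, adjusted p = 0.328). Without replicate 2 of Duplo at 21 °C, HSP23.6-MITO had 6.25 (adjusted p = 0.000734), HSP15.7 had 5.48 (adjusted p = 0.00838) and HSP17.6II had 9.48 (adjusted p = 0.00684). The count of DEGs in the list was 5 and 4 without replicates 1 and 2 of Duplo at 29 °C, and 1 without replicate 3 of that group, any 1 of the Drakkar libraries at 21 °C, or replicate 1 or 3 of Drakkar at 29 °C.

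Larger chaperones and co-chaperones had more DEGs, 12 upregulated and 0 downregulated of 45 tested (median 1.37). The count was 37 without replicate 2 of Duplo at 21 °C, 12 without replicate 3 of Duplo at 29 °C, and 7 without replicate 2 of Drakkar at 21 °C. P23-1 (BnaC05g17990D), a co-chaperone of HSP90, had 62.3, 15.1 and 69.6 CPM in Drakkar and 9.99, 11.9 and 13.3 CPM in Duplo at 29 °C. At 21 °C it had at most 0.244 CPM in 5 libraries and 3.44 CPM in Duplo replicate 2, so the temperatures did not overlap. The log2 fold change was 5.40 (adjusted p = 0.00896), and 8.48 without that library. It was 8.8 in Drakkar and 3.3 in Duplo, and the unadjusted p of that difference was 0.00811. The other tested copy of this locus with an entry, BnaA09g30420D, was not called (3.53 ± 2.2, adjusted p = 0.267). That copy had 9.2 in Drakkar and -0.15 in Duplo, where its libraries overlapped. Without replicate 2 of Duplo at 21 °C its average was 8.53 (adjusted p = 0.00288). In contrast, the DnaJ-domain chaperone gene BnaA03g33270D moved alike in both varieties, from 27.5 to 46.6 CPM at 21 °C to 84.5 to 134 CPM at 29 °C (1.52 ± 0.15, adjusted p = 0.000442). The HSP70 gene BnaA01g30490D (1.95 ± 1.31, adjusted p = 0.303) did not pass, but had 3.74 (adjusted p = 0.00438) without replicate 2 of Duplo at 21 °C.

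Of 13 tested heat-shock factor and partner genes, 1 was upregulated and 3 were downregulated (median log2 fold change 0.83). Without replicate 2 of Duplo at 21 °C, 5 were upregulated and 2 downregulated, and without replicate 1 of Duplo at 29 °C, 5 and 3. Without replicate 2 of Drakkar at either temperature, 0 were upregulated and 2 downregulated. HSFB2B belongs to class B of the factors, whose members mainly repress. Its copy BnaA09g21510D had 7.25, 7.18 and 8.47 CPM in Drakkar at 21 °C against 2.38, 2.91 and 1.23 CPM at 29 °C. In Duplo it had 6.24, 11.4 and 3.36 CPM at 21 °C against 3.12, 3.40 and 4.64 CPM at 29 °C, which overlapped. The average log2 fold change was -1.35 ± 0.31 (adjusted p = 0.0123). The copies BnaC09g52680D (-1.43 ± 0.32, adjusted p = 0.0119) and BnaC03g73070D (-1.29 ± 0.42, adjusted p = 0.0472) fell too, and the latter call held in 3 of the 12 fits that left out 1 library, those without replicate 3 of Duplo at 21 °C and without replicate 1 or 2 of Duplo at 29 °C. MBF1A (BnaA03g19860D), a transcriptional coactivator, rose by 1.05 ± 0.18 (adjusted p = 0.00418), and was no DEG without replicate 2 of Drakkar at either temperature or replicate 3 of Duplo at 29 °C.

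Among peroxide and glutathione enzymes, 16 of 62 were upregulated and 0 downregulated (median 1.35). This was a lower share than the 43.5% called higher among all tested genes with an entry in the study's tables. The peroxidase gene BnaC01g02300D rose by 2.59 ± 0.33 (adjusted p = 0.0013), and PRX17 (BnaC04g34810D), a cell wall peroxidase, rose by 2.04 ± 0.40 (adjusted p = 0.00696). CAT3 (BnaC08g19360D), a catalase, was not called (2.63 ± 1.24, adjusted p = 0.149), nor was PRX71 (BnaCnng51060D, 2.78 ± 1.08, adjusted p = 0.0864). PRX71 had 10.5 CPM in replicate 3 of Duplo at 29 °C and at most 0.721 CPM in the other 11 libraries. Without that library its log2 fold change was 0.44, and 8 members of the list were called. The count was 30 without replicate 1 of Duplo at 29 °C and 10 without replicate 1 of Duplo at 21 °C.

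Of 57 tested cell wall genes, 18 were upregulated and 3 downregulated (median 1.06), while 38 had a positive and 19 a negative log2 fold change. The summed level of the list was 1560 to 1903 CPM at 21 °C against 1085 to 1773 CPM at 29 °C. Its median over the libraries fell from 1784 to 1439 CPM. In Drakkar the sum was 1572 to 1903 CPM at 21 °C against 1085 to 1396 CPM at 29 °C. In Duplo the temperatures overlapped, with 1560 to 1828 CPM at 21 °C against 1482 to 1773 CPM at 29 °C. No member was downregulated without replicate 3 of Drakkar or of Duplo at 29 °C, and without replicate 1 of Duplo at 29 °C 30 were upregulated and 3 downregulated. The number downregulated was 1 without replicate 1 or 2 of Drakkar at 21 °C or replicate 2 of Drakkar at 29 °C, and 6 without replicate 2 of Duplo at 29 °C. PMEI9, an inhibitor of pectin methylesterase, rose in its C copy BnaC09g13080D (1.88 ± 0.24, adjusted p = 0.0013). EXPA8 (BnaA05g01790D), an expansin that loosens walls, went from 0.578 to 1.43 CPM at 21 °C to 1.80 to 5.92 CPM at 29 °C (1.93 ± 0.33, adjusted p = 0.00386). XTH24 (BnaC07g42500D), which remodels xyloglucan, rose by 2.22 ± 0.39 (adjusted p = 0.00443), with 2.94 in Drakkar and 1.35 in Duplo. The fasciclin-like FLA20 (BnaA04g10700D) rose by 1.55 ± 0.14 (adjusted p = 0.000319) without overlap.

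Of 11 tested cytoskeleton genes, 5 were upregulated and 1 downregulated. The summed level of the list had a median of 933 CPM at 21 °C and 714 CPM at 29 °C. In Drakkar it was 911 to 983 CPM at 21 °C against 669.5 to 744 CPM at 29 °C. In Duplo it was 926 to 969 CPM at 21 °C against 1020, 954 and 675 CPM at 29 °C, so only replicate 3 was lower there. The number upregulated was 3 without replicate 3 of Duplo at 29 °C or replicate 1 of Duplo at 21 °C, 3 without replicate 1 or 2 of Drakkar at 21 °C, and 2 without replicate 3 of Drakkar at 21 °C or replicate 1 or 3 of Drakkar at 29 °C. The profilin gene PRF1, whose product binds actin monomers, rose in copies BnaAnng19920D (2.02 ± 0.18, adjusted p = 0.00031) and BnaC09g33170D (1.40 ± 0.15, adjusted p = 0.000509). The beta-tubulin gene TUB1 (BnaC03g63960D) fell by 1.07 ± 0.14 on the log2 scale (adjusted p = 0.00134) and was no DEG under library totals alone or without replicate 1 or 3 of Drakkar at 29 °C. ACT7 (BnaC02g00690D), an actin gene used as a reference, had 346 to 400.0 CPM at 21 °C against 303 to 411 CPM at 29 °C. Its log2 fold change was -0.01 ± 0.08 (adjusted p = 0.94).

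Nitrate genes had 6 upregulated and 0 downregulated members of 24 tested (median 0.66). NPF3.1 (BnaCnng27190D), a transporter of the nitrate and peptide family that also carries gibberellin in Arabidopsis, rose by 2.75 ± 0.37 (adjusted p = 0.00147). NIR1 (BnaA07g04150D), nitrite reductase, rose by 2.12 ± 0.53 (adjusted p = 0.0184), with 25.4 CPM in Drakkar replicate 2 and 29.8 CPM in Duplo replicate 3 against 3.88 to 7.37 CPM in the other warm libraries. The high-affinity nitrate transporter gene NRT2.1 (BnaA06g04570D) had -3.60 in Drakkar and 1.21 in Duplo, so its average of -0.94 ± 1.08 stood for neither (adjusted p = 0.558). The unadjusted p of the difference between varieties was 0.00513. The nitrate reductase gene NIA1 (BnaCnng60930D, -1.52 ± 0.72) did not pass (adjusted p = 0.153).

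Smaller lists gave few genes. For water channels, 4 of 7 were upregulated, with PIP1C (BnaA04g00710D) at 1.24 ± 0.20 (adjusted p = 0.003). The number was 2 without replicate 1 of Drakkar at 21 °C, replicate 3 of Drakkar at 29 °C or replicate 1 of Duplo at 29 °C. Among ribosomal proteins, 7 of 10 were upregulated. Their summed level overlapped between temperatures, with 29.4 to 223 CPM at 21 °C (median 94.6) and 33.4 to 164 CPM at 29 °C (median 78.3). The number upregulated was 3 without replicate 1 of either variety at 21 °C or replicate 3 of Duplo at 29 °C. It was 4 without replicate 3 of either variety at 21 °C or of Drakkar at 29 °C. The ribosomal protein S4 gene BnaA04g09660D, at most 3 counts per library at 21 °C, was at least 4.32-fold higher at 29 °C. Of 9 cell cycle and histone genes, 4 were upregulated, such as the D-type cyclin gene CYCD3;3 (BnaC07g31650D, 1.17 ± 0.21, adjusted p = 0.00526). The count was 2 without replicate 3 of either variety at 29 °C, replicate 1 of either variety at 21 °C, replicate 2 of Drakkar at 21 °C or replicate 1 of Drakkar at 29 °C, and 6 without replicate 1 of Duplo at 29 °C. With all libraries, none of these 3 lists held a downregulated DEG. Only 1.79% of tested genes with an entry in the study's tables were called lower, so this could hardly be otherwise. The lists hold only members with such an entry and do not stand for their families.

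Some markers of other tissues moved with temperature as well. Of 5 tested green tissue genes, 2 were upregulated, PSBP-2 (BnaA05g11810D, 2.73 ± 0.40, adjusted p = 0.00224) and PSBO2 (BnaC02g48890D, 1.17 ± 0.28, adjusted p = 0.0165), both photosystem II subunits. PSBO2 had 5.53 CPM in replicate 3 of Duplo at 29 °C, and was no DEG without it (log2 fold change 0.82). The summed level of the list was 3.51 to 5.19 CPM at 21 °C against 6.27 to 18.3 CPM at 29 °C, without overlap. Without replicate 1 of Duplo at 29 °C, 5 green tissue genes were upregulated. Of 19 phloem genes, 7 were upregulated, with 4 without replicate 1 of Drakkar at 21 °C and 12 without replicate 1 of Duplo at 29 °C, and the sum was 34.3 to 46.4 CPM at 21 °C against 52.7 to 132 CPM at 29 °C. In the endodermis and root hair list, 3 of 7 were upregulated and the sums overlapped, 32.7 to 69.0 CPM at 21 °C against 32.6 to 64.5 CPM at 29 °C. Root hair gene COW1 (BnaA03g52910D) was among them (1.30 ± 0.32, adjusted p = 0.0182), at under 0.6 CPM in each library. It overlapped between temperatures in Duplo and was no DEG without both Duplo libraries that stand apart (adjusted p = 0.0573). Of the 7 genes, 4 had a positive and 3 a negative log2 fold change. The part of these tissues in the other results was not tested. The tables at hand named 0 of 3 root cap markers and 1 of 6 meristem markers, so the labelled tissue could not be checked against them.

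Downregulated DEGs were mostly without a name, as 414 of the 455 had no entry in the part of the study's tables at hand. Of the 455, 308 did not overlap in either variety, against 730 of the 1490 upregulated DEGs. The lowest p was that of BnaC05g23610D, with 25.6, 31.5 and 27.1 CPM in Drakkar at 21 °C against 8.61, 10.4 and 8.56 CPM at 29 °C. In Duplo it had 32.2, 26.7 and 32.9 CPM at 21 °C against 12.2, 10.8 and 8.41 CPM at 29 °C. The log2 fold change was -1.58 ± 0.11 (adjusted p = 6.62e-05), and both varieties shared 1 level at either temperature within their spread. A deeper fall was that of BnaC02g12680D, from 6.56 to 22.3 CPM at 21 °C to 0.0351 to 1.86 CPM at 29 °C (-3.97 ± 0.54, adjusted p = 0.00165). It was -5.59 in Drakkar and -2.75 in Duplo, and the unadjusted p of the difference was 0.00152.

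Named downregulated genes included the homeobox gene HB3 (BnaC03g18850D), a transcription factor of the HD-Zip family. It had 1.51, 1.62 and 1.46 CPM in Drakkar and 1.55, 0.824 and 0.714 CPM in Duplo at 21 °C. At 29 °C it had 0.402, 0.134 and 0.386 CPM in Drakkar and 0.414, 0.224 and 0.0704 CPM in Duplo, below every library at 21 °C. The log2 fold change was -2.20 ± 0.36 (adjusted p = 0.0032). Of 2 further tested genes listed as HB-3, 0 were DEGs. Lipid genes were CPI1 (BnaC08g33670D), a cyclopropylsterol isomerase of sterol synthesis (-1.58 ± 0.34, adjusted p = 0.01), and ELO1 (BnaA03g29450D), of the fatty acid elongase family (-1.44 ± 0.29, adjusted p = 0.00784). CPI1 fell by 2.47 in Drakkar but had -0.65 in Duplo, where libraries overlapped (unadjusted p of the difference 0.000976). MEE32 (BnaC05g45470D), a shikimate pathway enzyme, fell by 1.24 ± 0.22 (adjusted p = 0.00435). RHA2B (BnaC07g48760D), a RING-type ubiquitin ligase, fell by 1.28 ± 0.21 (adjusted p = 0.00325). The kinase gene RBK1 (BnaC09g46020D) had -1.29 ± 0.28 (adjusted p = 0.00993). HDG1 (BnaA07g18950D), another homeobox gene, had -1.01 ± 0.18 (adjusted p = 0.0052). It was no DEG without replicate 2 of Drakkar at 21 °C, replicate 1 or 3 of Drakkar at 29 °C, or replicate 2 or 3 of Duplo at 29 °C. Its call was also lost under library totals alone and with at least 10 counts in every library.

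Both subgenomes contributed. On the A subgenome, 700 genes were upregulated and 230 downregulated, 3.51% of 26513 tested. On the C subgenome, 787 were upregulated and 224 downregulated, 3.54% of 28570. Only copies with an entry in the study's tables of responsive genes could be matched, so copies without an entry are not counted. Among 403 Arabidopsis loci with such tested copies on both subgenomes, every listed copy was a DEG at 125 loci, some at 131 and none at 147. Of all tested genes with an entry, 43.5% were called higher and 1.79% lower. In 1 locus, copies were called in opposite directions. Reads shared between copies can make them look alike, and the share of such reads is not known here.

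The number of DEGs depended most on Duplo at 29 °C. Over the 12 fits that left out 1 library, it was lowest, 1415, without replicate 3 of Duplo at 29 °C and highest, 2712, without replicate 1 of that group, with 2519 without replicate 2. In all 12 of these fits, 906 of the 1945 DEGs were called, 651 upregulated and 255 downregulated. Without replicate 3 of Duplo at 29 °C, all 1490 upregulated and all 455 downregulated DEGs kept their sign, with medians of 1.27 and -1.32. Fits of 1 variety alone, which share their libraries with the average, called 1707 DEGs in Drakkar and 1 in Duplo.

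**Figure D5:**
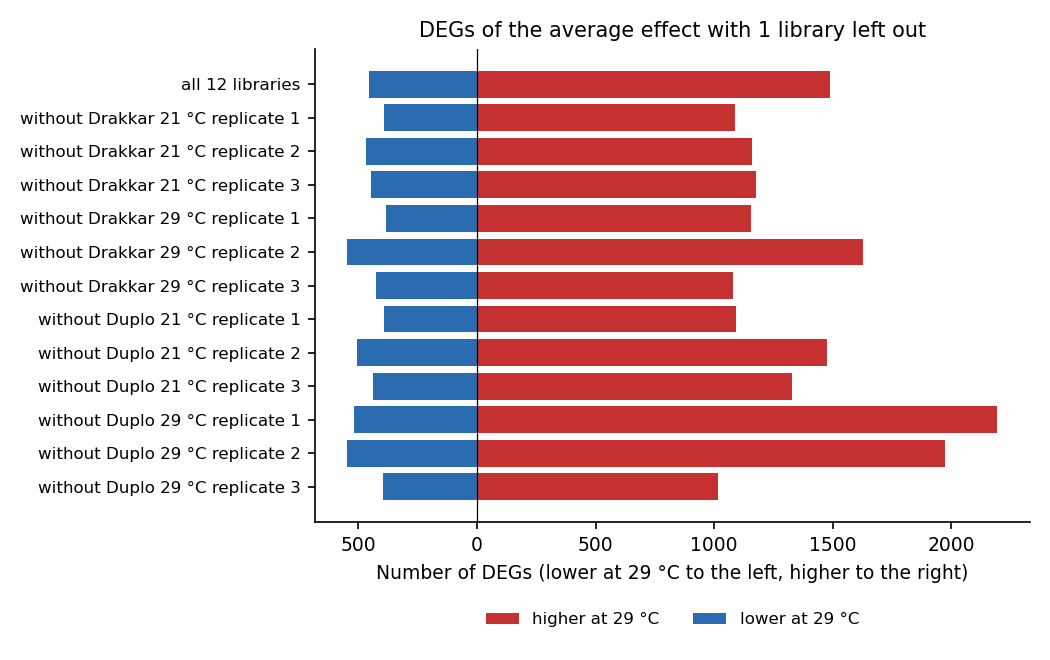
Number of DEGs in the average 29 °C effect with all 12 libraries and with each library left out in turn, with upregulated DEGs as red bars to the right and downregulated DEGs as blue bars to the left of 0. The total runs from 1415 without replicate 3 of Duplo at 29 °C to 2712 without replicate 1 of that group, beside 1945 with all libraries.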

How the data were processed

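Poly(A) RNA of root tips (0.5 cm in the paper's methods, 1 cm in the labels) was sequenced as paired reads from a stranded kit, checked with FastQC v0.11.1 and aligned with HISAT2 to the AST_PRJEB5043_v1 genome. The authors deposited raw read counts per gene for each variety, without normalization. The counting program, its strand setting and its treatment of reads with several alignments are not given in the sources used here. The authors' own fold changes and p-values from DESeq2 were not used. Both tables were joined by gene identifier, and a line without a gene name (0 to 2 reads per library) was dropped.

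Libraries were grouped by their labels. Genes were filtered with filterByExpr over the 4 groups, scaled with TMM factors and fitted as variety plus temperature with edgeR's quasi-likelihood test. Adjusted p-values are of this test, with Benjamini-Hochberg adjustment over all genes tested, and SE is the log2 fold change in size over the square root of F. Effects per variety and their difference came from a fit of 4 group means. A gene with at most 3 counts in each library of a group was taken as at the floor (0.0758 to 0.112 CPM), which covers counting error alone. The fit was tested on simulated counts for the average effect only.

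Named genes were DEGs with the 12 largest changes in each direction (no overlap in either variety, at least 1 CPM at 1 temperature), the 5 lowest p-values in each direction, the 4 lowest p-values of each list (the 2 lowest where a list held no DEG), the 10 lowest p-values in each direction among genes with a name, and all 29 genes with a primer pair. Not every gene that the rule takes is printed, and of genes without a name few are. Members and lists were chosen with earlier results of these data known. A RefSeq table of another assembly gave no matches. Alternatives were DESeq2, RLE factors, library totals alone, no filter, at least 10 counts in every library, robust estimation, the replicate number as a block, 4 group means, and each library left out. Leaving out both Duplo replicates 3 or both Duplo libraries that stand apart, and a block within each variety, were chosen after seeing the data. Software was Python 3.11.15 (pandas 2.3.3, numpy 2.4.6, matplotlib 3.10.9) and R 4.3.3 with limma 3.58.1, DESeq2 1.42.0 and edgeR 4.0.16.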

Additional observations from a re-analysis of the deposited data

Results flagged for a closer look

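MIPS2 (BnaA09g42760D), a myo-inositol phosphate synthase gene, moved in opposite directions in the 2 varieties, with no overlap between temperatures in either. Its log2 fold change in Duplo minus that in Drakkar was -6.61, with an unadjusted p of 0.0158 and an adjusted p above the threshold. In Drakkar it had 0.475, 1.06 and 1.40 CPM at 21 °C against 27.4, 2.04 and 38.8 CPM at 29 °C. In Duplo it had at most 4 counts in any library, so the Duplo change lies near the floor. The average was 3.84 ± 1.03 (adjusted p = 0.0243), and it was no DEG without any 1 of the Drakkar libraries at 21 °C or without replicate 1 or 3 of Drakkar at 29 °C.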

How the results depend on the processing

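The number of DEGs stayed within 1.5 times that of the full fit in each alternative except 1. With at least 10 counts in every library, 1071 DEGs were called, 858 higher and 213 lower, as this filter removes genes that are near 0 at either temperature. Leaving out 1 library gave 1415 to 2712 DEGs, 1017 to 2194 of them higher and 383 to 546 lower. DESeq2 gave 2363 DEGs, no filter 2167, library totals alone 2293 and the 4 group means 2087. Deviations of same-numbered replicates from their group means had correlations from -0.338 to 0.377, over 0.1 in 5 of 18 pairs. Between Drakkar and Duplo at 29 °C they were 0.227, 0.0658 and 0.377 for replicates 1, 2 and 3. With 3 libraries per group, these values cannot tell whether the numbers pair the libraries. The replicate block gave 1688 DEGs and the block within each variety 1368. The share of upregulated DEGs lay between 70.8% and 84.3% over all alternatives. ACT7, which was not called, changed sign around 0, with a log2 fold change of 0.072 with library totals alone, 0.011 with at least 10 counts in every library, 0.023 without both Duplo replicates 3, 0.017 without both Duplo libraries that stand apart, and -0.056 to 0.044 with 1 library left out. Of 124 named DEGs, 89 were called in all 12 fits with 1 library left out, and 90 in all other alternatives in which they were tested.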
